A study of Mus musculus with 8 samples.

Results

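The nuclear genes for proteins of the mitochondrial ribosome were followed in mouse E14 embryonic stem cells labelled as knockout for the long noncoding RNA lncSmad7. They were taken from the deposited table as the symbols made of Mrpl or Mrps, a number and at most 1 letter from a to c, if they had 10 or more reads in at least 2 libraries. The pattern matched 78 symbols, and 77 of the 55292 features of the table met the read minimum: 48 of the large subunit (Mrpl) and 29 of the small subunit (Mrps). The libraries analysed were knockout cells (lncSmad7-/-) transfected with Smad7 and named with 24 h in the labels (KO+Smad7), untransfected knockout cells (KO), and wild-type cells (WT), with 2 libraries in each group. All came from E14, of strain 129/Ola, grown on gelatin with serum and leukaemia inhibitory factor. WT and KO were untreated, and no library with a control vector was analysed here. The labels do not say whether the knockout is 1 clone, and knockout cells transfected with lncSmad7 were not analysed here.

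Mitochondria keep their own ribosome, which translates the few mRNAs of the mitochondrial genome into subunits of the respiratory chain and of ATP synthase. Its ribosomal RNAs come from the mitochondrial genome, while all of its proteins are encoded in the nucleus, made in the cytosol and imported. The small subunit binds the mRNA and reads the codons, and the large subunit joins the amino acids and threads the new chain out through a tunnel. Compared with the bacterial ribosome the particle is rich in protein and poor in RNA, and it holds many proteins that have no counterpart in bacteria. Smad7 is an inhibitor of TGF-beta superfamily signalling.

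Library totals lay between 13392941 and 15972163 counts in KO+Smad7, between 19455030 and 20159897 in KO, and between 19260386 and 20209760 in WT. Levels are given as CPM, which are counts relative to the library total after scaling with TMM factors. lncSmad7 itself had 167 and 207 counts in KO+Smad7, 140 and 105 in KO, and 237 and 221 in WT, so reads of this feature remained in the knockout libraries. Where the deletion lies within it was not stated in the labels. Smad7 lay at 93.8 and 99.4 CPM in KO+Smad7, 75.5 and 69.6 CPM in KO, and 97.6 and 97.7 CPM in WT. In the libraries labelled Smad7-transfected both transcripts were above KO, with log2 fold changes of 0.79 for lncSmad7 and 0.41 for Smad7 (edgeR adjusted p = 9.31e-09 and 3.25e-14), and Smad7 lay around its WT level (log2 fold change -0.01, edgeR adjusted p = 0.79). This last match depends on the TMM factors, which were 1.16 in KO+Smad7 and 0.881 and 0.886 in WT. Smad7 had 1454 and 1837 counts in KO+Smad7 and 1655 and 1747 in WT, which relative to the library totals alone is higher in KO+Smad7. Ddx3y, a Y-linked gene, had 40 and 39 counts in KO+Smad7, 23 and 9 in KO, and 710 and 748 in WT. Among 8 pluripotency markers none was at 0 in any library, and their summed level, in CPM without TMM factors, spanned 5059 to 5074 CPM in KO+Smad7, 6403 to 6525 CPM in KO and 4269 to 4360 CPM in WT. Gene by gene with TMM factors, 6 of the 8 were lower and 2 higher in KO+Smad7 than in WT, with a median log2 fold change of -0.30. Library size scaling gave 2 lower and 4 higher, with a median of 0.10, so the order of these groups depended on the scaling. The 7 fibroblast and feeder markers summed to at most 10.1 CPM in KO+Smad7, 6.0 CPM in KO and 5.10 CPM in WT, with Col3a1 and Lum at 0 in KO+Smad7 and Col3a1, Dcn, Lum and Postn at 0 in KO. The 2 that were tested, Col1a1 and Thy1, were both higher in KO+Smad7 than in KO and than in WT. Col1a1 had 38 and 36 counts in KO+Smad7, 15 and 17 in KO, and 17 and 28 in WT. Thy1 had 92 and 124 counts in KO+Smad7, 106 and 85 in KO, and 54 and 61 in WT. The 12 germ layer and trophectoderm markers summed to 30.5 to 32.1 CPM in KO+Smad7, 39.4 to 40.8 CPM in KO and 46.7 to 47.7 CPM in WT. These sums combine opposite changes. Of 10 such markers tested with TMM factors, 5 were lower and 1 higher in KO than in WT. Gata6 had 29 and 29 counts in KO+Smad7, 5 and 4 in KO, and 167 and 200 in WT. Sox1, the marker that was higher, had 133 and 179 counts in KO+Smad7, 476 and 456 in KO, and 314 and 307 in WT. The part of these differences in the results was not tested. The labels call the replicates biological without saying that cultures were separate, so p-values measure only the spread between these libraries. In bulk RNA, fewer cells of a kind and less RNA per cell cannot be told apart.

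The promoters of 5 genes that the results turn on are shown, each 300 bases long, from 250 before the transcription start to 50 bases from it on, read 5′ to 3′ on the strand of the gene (RefSeq, GRCm38.p6). Mrpl12 fell furthest in KO+Smad7, Mrpl58 and Mrps12 fell steeply in KO+Smad7, and Mrpl17 and Mrps2 were the pair that was higher in KO than in WT. Their windows are chr11:120484387-120484686 (plus strand) for Mrpl12, chr11:115403502-115403801 (plus) for Mrpl58, chr7:105811038-105811337 (minus) for Mrpl17, chr7:28741772-28742071 (minus) for Mrps12 and chr2:28467816-28468115 (plus) for Mrps2. Capitals mark matches, on either strand, to 5 short words: TGCGCA, the core of the motif of Nrf1, CCGGAAG, of Ets factors such as Gabpa, GATGGCG, of Yy1, CCAAT, of NF-Y, and GGGCGG, of Sp1. At the start of the Mrpl17 window a reversed GGGCGG overlaps a CCGGAAG.
Mrpl12: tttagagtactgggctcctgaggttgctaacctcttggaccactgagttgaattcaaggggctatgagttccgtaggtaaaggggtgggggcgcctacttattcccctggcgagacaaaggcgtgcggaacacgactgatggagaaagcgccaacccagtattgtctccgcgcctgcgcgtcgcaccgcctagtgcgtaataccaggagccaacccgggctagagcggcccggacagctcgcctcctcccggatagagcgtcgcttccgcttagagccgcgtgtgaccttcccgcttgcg
Mrpl58: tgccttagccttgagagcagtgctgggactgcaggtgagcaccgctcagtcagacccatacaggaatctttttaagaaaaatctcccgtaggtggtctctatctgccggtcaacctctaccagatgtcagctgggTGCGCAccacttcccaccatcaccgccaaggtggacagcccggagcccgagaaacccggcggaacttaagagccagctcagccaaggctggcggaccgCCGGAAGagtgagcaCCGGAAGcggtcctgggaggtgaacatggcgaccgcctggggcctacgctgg
Mrpl17: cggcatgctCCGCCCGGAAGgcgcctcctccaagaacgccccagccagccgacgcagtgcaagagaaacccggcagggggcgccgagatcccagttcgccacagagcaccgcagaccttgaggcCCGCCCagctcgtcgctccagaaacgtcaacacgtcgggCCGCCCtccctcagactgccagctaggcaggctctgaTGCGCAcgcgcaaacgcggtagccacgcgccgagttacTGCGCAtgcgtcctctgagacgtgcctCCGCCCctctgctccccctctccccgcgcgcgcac
Mrps12: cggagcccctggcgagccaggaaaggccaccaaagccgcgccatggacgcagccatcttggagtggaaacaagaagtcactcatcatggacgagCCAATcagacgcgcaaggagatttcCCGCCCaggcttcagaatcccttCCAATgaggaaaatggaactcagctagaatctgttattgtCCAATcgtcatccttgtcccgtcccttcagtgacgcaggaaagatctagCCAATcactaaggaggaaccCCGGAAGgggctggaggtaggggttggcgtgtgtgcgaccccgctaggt
Mrps2: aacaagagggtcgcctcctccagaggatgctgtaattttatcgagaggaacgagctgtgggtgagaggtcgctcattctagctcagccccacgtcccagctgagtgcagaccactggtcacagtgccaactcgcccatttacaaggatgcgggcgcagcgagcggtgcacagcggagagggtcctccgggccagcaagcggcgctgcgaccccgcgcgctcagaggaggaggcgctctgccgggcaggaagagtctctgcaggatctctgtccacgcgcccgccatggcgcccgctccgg
The Mrpl12 and Mrps2 windows held none of the 5 words, the Mrpl58 window held 3 matches, the Mrps12 window 6 and the Mrpl17 window 7. So the gene with the steepest fall and a gene that was higher in KO shared the absence of a match.

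Over the whole set, 74 promoters of 68 genes were found in the RefSeq table. TGCGCA stood in 29.7% of them, against 7.76% of all 32851 promoters in the table and 12.9% of the 14064 promoters of protein-coding genes tested. CCGGAAG stood in 33.8%, against 8.86% and 16% in the same backgrounds, and GATGGCG in 10.8%, against 3.49% and 5.87%. CCAAT was about as frequent as elsewhere, at 39.2% against 37.4% and 37.6%. GGGCGG stood in 52.7%, against 35.7% of all promoters and 61.5% of those of coding genes tested. Both subunits carried the words: TGCGCA was in 12 of 47 large and 10 of 27 small subunit promoters, and CCGGAAG in 14 and 11. A match describes the letters only.

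All 77 genes passed the filter on low counts and were among the 17342 genes tested. The least read were Mrpl23, with 54 to 115 counts per library, Mrps36, with 63 to 154, and Mrps33, with 71 to 207, so every gene lay well inside the read minimum. Mrpl53, a large subunit protein at the stalk base, was the gene outside it, with 0 counts in all 6 libraries. Of its 790 annotated exon bases, 695 are shared with other annotated genes. To compare genes roughly, levels were divided by the kilobases of all annotated exons of a gene, merged over its transcripts. The order of genes therefore depends on the annotation: Mrpl20 has 1664 such bases, but its longest transcript has 810. On this scale the highest levels over the 6 libraries were those of Mrpl18 (77.0 CPM per kb), Mrpl12 (76.8) and Mrpl34 (71.6), and the lowest those of Mrpl48 (1.85), Mrpl33 (1.69) and Mrpl23 (0.997). Mrpl18, a protein of the central protuberance that binds a structural RNA there, stood at 32.5 ± 0.925 CPM per kb in KO+Smad7, 70.6 ± 1.56 in KO and 128 ± 0.711 in WT (SD, n = 2). Mrpl34, a small bacterial-type protein, stood at 37.0 ± 1.70, 78.1 ± 2.32 and 99.5 ± 5.54 CPM per kb in the same groups (SD, n = 2). The order at the top differed by group. Mrpl2, a protein near the peptidyl transferase centre, led in KO+Smad7 with 49.0 ± 1.76 CPM per kb, Mrpl34 led in KO, and Mrpl12 led in WT with 143 ± 2.13 CPM per kb (SD, n = 2). The next in KO was Mrpl2 with 72.2 ± 0.567 CPM per kb (SD, n = 2), followed by Mrpl18, and these neighbours differed by no more than about their spread.

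Added together, the 77 genes took 0.261% and 0.258% of all counts in KO+Smad7, 0.383% and 0.397% in KO, and 0.469% and 0.479% in WT. The 3 groups did not overlap, and replicates lay close together. Mitochondrially encoded transcripts followed another order, with 2.48% and 2.33% of counts in KO+Smad7, 1.4% and 1.37% in KO, and 1.58% and 1.53% in WT. Only 7 of the 13 mitochondrial mRNAs had enough reads to be tested, and their order depended on a correction for GC and length, given below. The plot of summed counts shows both shares beside the ratio of large to small subunit counts.

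**Figure D1:**
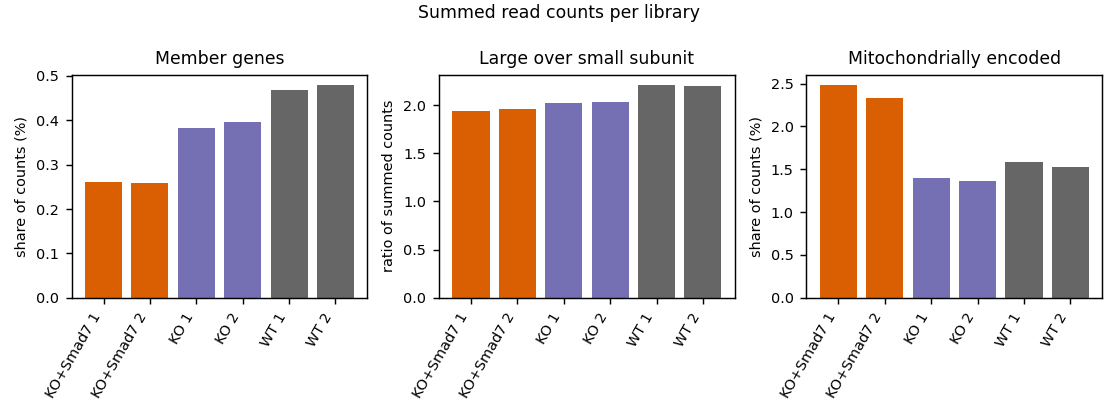
Summed read counts in each of the 6 libraries, with KO+Smad7 in orange, KO in purple and WT in grey. The panels give the share of counts in the 77 mitochondrial ribosomal protein genes (%), the ratio of large to small subunit counts, and the share in mitochondrially encoded genes (%). The first share is 0.258% to 0.261% in KO+Smad7 and 0.469% to 0.479% in WT, while the last is highest in KO+Smad7.

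KO was then set against WT, groups that the labels separate by the lncSmad7 genotype and in which lncSmad7 and Ddx3y counts differed as given above. Of the 77 genes, 68 fell and 2 rose in KO, and 7 did not pass the threshold (edgeR's quasi-likelihood test, adjusted p under 0.05 over all genes tested). The background was high: 33.3% of all genes tested were lower in KO and 34.5% higher. The median log2 fold change of the set was -0.41, which is 75.4% of the WT level, beside 0.02 over all genes tested. By library, 70 genes had both KO values under both WT values, beside 40.1% of all genes, and 3 had both above, beside 42.4%. The libraries of Mrpl14, Mrpl57, Mrps18a and Mrps36 overlapped. With GC and length offsets 7 genes were called higher and 63 lower, and with library size scaling 5 and 55.

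The steepest falls in KO were those of Mrpl47, Mrpl12, Mrpl42, Mrpl20, Mrpl18 and Mrps7. Mrpl47, a protein at the exit of the tunnel, had 26.6 and 26.6 CPM in KO and 64.5 and 64.1 CPM in WT. Its log2 fold change was -1.27 with a standard error of 0.06 (edgeR adjusted p = 5.05e-43), and 24.2% of its exon bases lie under Actl6a or Ndufb5 on the other strand. Mrpl12, the stalk protein that binds translation factors and is known from human cells to bind the mitochondrial RNA polymerase, had 95.6 and 103 CPM in KO and 221 and 216 CPM in WT. It fell by 1.14 on the log2 scale (SE 0.04, edgeR adjusted p = 2.16e-55). Mrpl42, which has no bacterial counterpart, had 61.8 and 66.0 CPM in KO and 117 and 124 CPM in WT. Mrpl20, a bacterial-type protein of the large subunit body, had 56.5 and 59.2 CPM in KO and 105 and 110 CPM in WT. These falls came to 0.91 and 0.89 on the log2 scale, each with a standard error of 0.05. Mrpl18 had 97.2 and 100 CPM in KO and 180 and 178 CPM in WT, a log2 fold change of -0.86. Mrps7, which helps to build the head of the small subunit, had 57.3 and 58.4 CPM in KO and 102 and 104 CPM in WT, a log2 fold change of -0.83. In none of these genes did a KO library reach a WT library.

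Mrps2 and Mrpl17 went the other way. Mrps2, a protein at the back of the small subunit, had 104 and 107 CPM in KO and 86.2 and 81.3 CPM in WT. It rose by 0.34 on the log2 scale (SE 0.05, edgeR adjusted p = 7.73e-11). Mrpl17, at the tunnel exit, had 143 and 147 CPM in KO and 122 and 119 CPM in WT, and rose by 0.26 (SE 0.04, edgeR adjusted p = 1.12e-08). Both KO libraries were above both WT libraries for each gene. The pair was higher in each alternative fit, but against a minimum fold of 1.2 only Mrps2 passed. The 7 genes that did not pass were Mrpl14, Mrpl23, Mrpl41, Mrpl43, Mrpl57, Mrps18a and Mrps36, with log2 fold changes from -0.22 for Mrpl23 to 0.12 for Mrpl14.

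**Figure D2:**
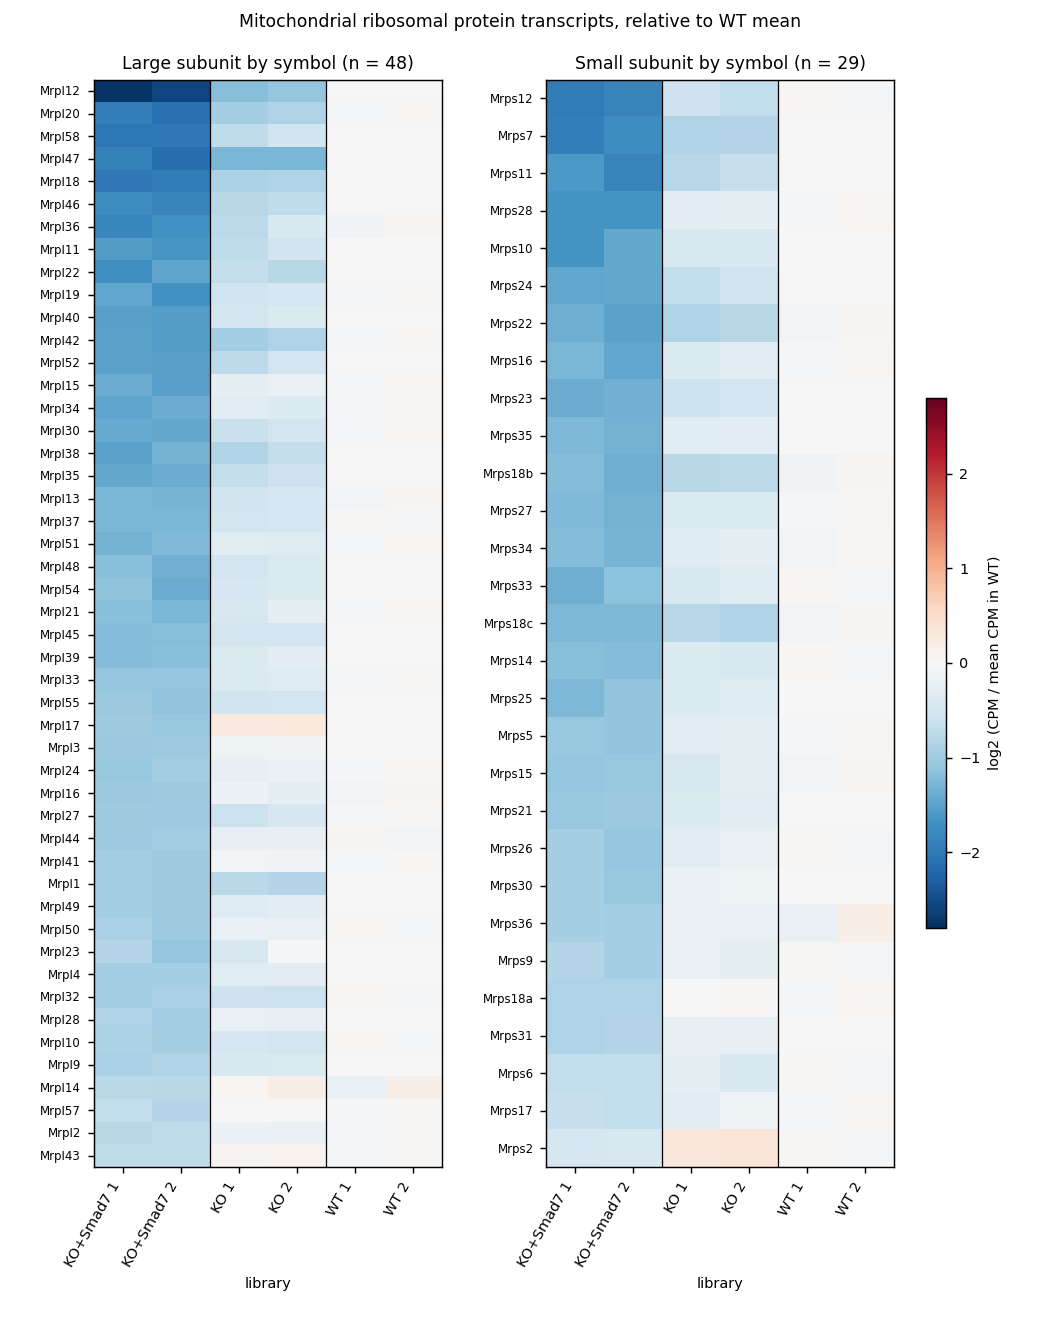
Each row is 1 of the 77 genes, ordered by its level in KO+Smad7, and each column 1 library. Colour is the log2 ratio of CPM to the mean CPM of the gene in WT, blue for lower and red for higher. The KO+Smad7 columns are blue in every row, and the KO columns of Mrps2 and Mrpl17 are red.

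In KO+Smad7 against KO all 77 genes fell (edgeR's quasi-likelihood test, adjusted p under 0.05), where 36.8% of all genes tested were lower and 37.8% higher. The median log2 fold change was -0.80, or 57.4% of the KO level, beside 0.04 over all genes. All 77 had both KO+Smad7 libraries under both KO libraries, which held for 41.8% of all genes, while 44.5% had both above. The falls spanned 0.19 for Mrpl1, a protein of the mobile stalk beside the exit site of tRNA, to 1.51 for Mrpl12 on the log2 scale. With GC and length offsets 71 of the 77 were called, the others being Mrpl27, Mrpl55, Mrps6, Mrps18b, Mrps18c and Mrps36. With library size scaling 73 were, without Mrpl1, Mrpl32, Mrps6 and Mrps18c. The median of the set was then -0.55, beside 0.29 over all genes.

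Mrpl12 had 32.6 and 36.8 CPM in KO+Smad7 and 95.6 and 103 CPM in KO (log2 fold change -1.51, SE 0.05, edgeR adjusted p = 1.00e-56). Mrps28, a small subunit protein, had 12.7 and 12.7 CPM in KO+Smad7 and 32.5 and 33.9 CPM in KO (log2 fold change -1.38, SE 0.08). Mrpl58, which resembles a release factor and frees stalled chains from the ribosome, had 11.2 and 11.5 CPM in KO+Smad7 and 27.8 and 30.8 CPM in KO (log2 fold change -1.36, SE 0.09). In each of the 3 the groups lay much further apart than the replicates. Mrpl17 had 60.9 and 57.9 CPM in KO+Smad7 and 143 and 147 CPM in KO, a log2 fold change of -1.29. Mrps12, the protein of the decoding site, had 11.7 and 12.3 CPM in KO+Smad7 and 30.3 and 27.9 CPM in KO, a log2 fold change of -1.28. Mrpl15, a protein of the large subunit body, had 92.9 and 84.8 CPM in KO+Smad7 and 203 and 209 CPM in KO, a log2 fold change of -1.22. Mrpl17 was thus among the 2 genes that rose in KO over WT and among the 6 with the greatest fall in KO+Smad7 below KO. At the other end, Mrpl1 had 38.0 and 37.2 CPM in KO+Smad7 and 43.9 and 41.9 CPM in KO (log2 fold change -0.19, SE 0.06, edgeR adjusted p = 0.00369). With library size scaling its value was 0.06 and did not pass.

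Against WT, all 77 genes fell in KO+Smad7 as well, where 38.8% of all genes tested were lower and 43.1% higher. No gene's libraries overlapped, beside 42.4% of all genes with lower and 47.5% with higher values in both KO+Smad7 libraries. The median log2 fold change was -1.23, or 42.6% of WT, beside 0.09 over all genes. Mrpl12 led with a log2 fold change of -2.65 (SE 0.05, edgeR adjusted p = 1.11e-90), followed by Mrpl20 with -2.01, Mrpl58 and Mrpl47 with -2.0 each, Mrpl18 with -1.98 and Mrps12 with -1.91. In libraries, Mrpl20 had 28.1 and 25.2 CPM in KO+Smad7 and 105 and 110 CPM in WT. Mrpl58 had 11.2 and 11.5 CPM in KO+Smad7 and 46.1 and 45.1 CPM in WT. Mrpl47 had 17.4 and 15.0 CPM in KO+Smad7 and 64.5 and 64.1 CPM in WT. None of these KO+Smad7 libraries came near a WT library. Mrps12 had 11.7 and 12.3 CPM in KO+Smad7 and 46.0 and 44.1 CPM in WT. The least change was that of Mrps2, with 60.8 and 61.4 CPM in KO+Smad7 and 86.2 and 81.3 CPM in WT (log2 fold change -0.45, SE 0.05, edgeR adjusted p = 4.62e-15). With library size scaling 76 genes passed, and Mrps2 did not. The median of the set was then -0.84, beside 0.48 over all genes.

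The 3 comparisons share libraries, so their agreement for a gene is not independent. In 70 of the 77 genes both KO libraries were below both WT libraries and both KO+Smad7 libraries below both KO libraries, beside 20.7% of all genes tested. The exceptions were Mrpl14, Mrpl17, Mrpl43, Mrpl57, Mrps2, Mrps18a and Mrps36, each lower in KO+Smad7 than in KO but not lower in both KO libraries than in WT. These counts rest on CPM with TMM factors. With library size scaling 55 genes were called lower in KO against WT and 73 in KO+Smad7 against KO. Mrpl3 then had a log2 fold change of 0.02 in KO against WT, and Mrpl1 of 0.06 in KO+Smad7 against KO. The plot of 12 genes by library shows the stepwise and the other patterns side by side.

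**Figure D3:**
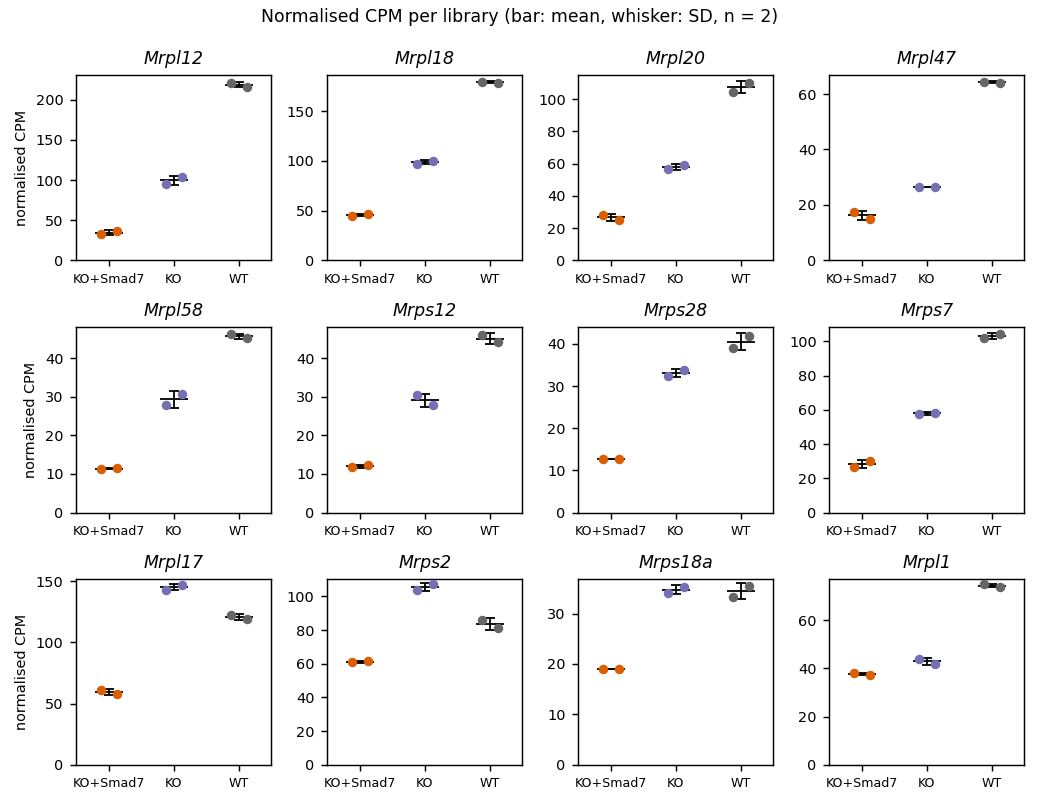
Normalised CPM of 12 genes in each library, with dots for libraries, a bar for the mean and a whisker for the SD (n = 2 per group), and the vertical axis starting at 0. Mrpl12, Mrpl18, Mrpl20, Mrpl47, Mrpl58, Mrps12, Mrps28 and Mrps7 are lowest in KO+Smad7, intermediate in KO and highest in WT. Mrpl17 and Mrps2 peak in KO, Mrps18a lies level in KO and WT, and Mrpl1 is lower in KO with little further change.

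Large and small subunit genes were compared by the medians of their fold changes and by their summed counts. In KO against WT, 42 of 48 large subunit genes fell and 1 rose, with a median log2 fold change of -0.46, and 26 of 29 small subunit genes fell and 1 rose, with a median of -0.34. The difference of the medians, large minus small, was -0.12, and over the 4 pairs of a KO with a WT library it ran from -0.13 to -0.07 (SD 0.02). It shrank to -0.06 with GC and length offsets and to -0.08 when Mrps30 and Mrps18a, which sit in the large subunit in structures of the particle, were counted there and Mrps36, known as a part of the 2-oxoglutarate dehydrogenase complex, in neither. In KO+Smad7 against KO the medians were -0.80 in both subunits, and the difference over pairs ran from -0.03 to 0.01. Against WT the KO+Smad7 medians were -1.22 for the large and -1.25 for the small subunit, a difference of 0.03 with an SD of 0.05 over pairs. That difference was 0.06 with the structural assignment and ran from -0.01 to 0.05 with a library left out, so its sign was not stable. Members are not replicates, so no test was made between the subunits. The pairs of libraries have libraries in common, so the SD over pairs only describes these pairs. The ratio of summed large to small subunit counts was 1.94 and 1.96 in KO+Smad7, 2.02 and 2.03 in KO, and 2.21 and 2.19 in WT, with no overlap. By this measure KO+Smad7 lay further from WT than KO did. This ratio weighs genes by their reads, so Mrpl12, Mrpl18 and Mrpl15 count more in it than in the medians.

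**Figure D4:**
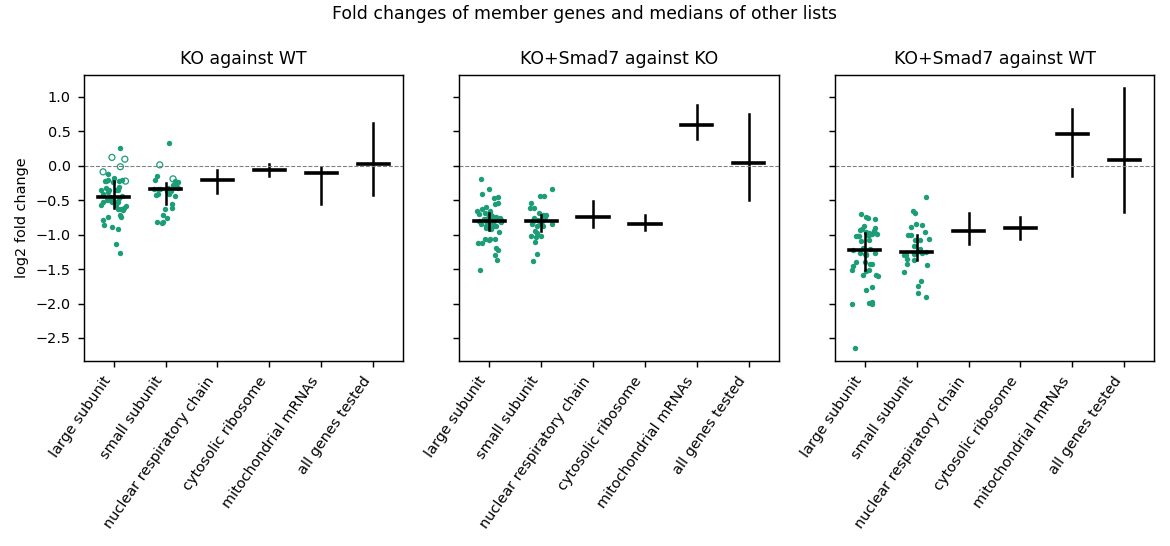
The log2 fold change of each gene (dots, filled where the edgeR adjusted p is under 0.05) in the 3 comparisons, split by subunit, with the median as a bar and the interquartile range as a line, beside the medians of other lists. In KO against WT the medians are -0.46 for the large and -0.34 for the small subunit, and in KO+Smad7 against KO they are -0.80 in both.

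By place in the particle, the 3 stalk genes measured, Mrpl10, Mrpl11 and Mrpl12, were lower in each comparison, with medians of -0.63 in KO against WT, -0.97 in KO+Smad7 against KO and -1.6 in KO+Smad7 against WT. They differed widely among themselves: in the last comparison Mrpl12 fell by 2.65, Mrpl11 by 1.6 and Mrpl10 by 0.90 on the log2 scale. The 6 genes of the central protuberance, Mrpl18, Mrpl38, Mrpl40, Mrpl46, Mrpl48 and Mrpl55, all fell too, with medians of -0.64, -0.93 and -1.46 in the same order. The 4 genes at or near the peptidyl transferase centre, where peptide bonds form, were Mrpl2, Mrpl3, Mrpl16 and Mrpl27, with medians of -0.20, -0.67 and -1.01. All 4 fell in each comparison, but with library size scaling 1 of the 4 passed in KO against WT. Mrpl3 was close to the threshold in KO against WT (log2 fold change -0.12, edgeR adjusted p = 0.0215), and its value was 0.02 with library size scaling. The 6 genes of the tunnel exit were mixed in KO against WT, where Mrpl22, Mrpl24, Mrpl45 and Mrpl47 fell, Mrpl17 rose and Mrpl23 did not pass (log2 fold change -0.22, edgeR adjusted p = 0.182). Mrpl45, which contacts the inner membrane, had 87.4 and 88.7 CPM in KO+Smad7, 142 and 140 CPM in KO, and 204 and 202 CPM in WT. The 3 groups did not overlap. On the small subunit, Mrps5, Mrps12 and Mrps24, which line the decoding site or the path of the mRNA, fell in every comparison, with medians of -0.62, -0.83 and -1.44.

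Bacterial ribosomal protein S18 has 3 relatives here, and they did not move alike. Mrps18a had 19.0 and 19.0 CPM in KO+Smad7, 34.2 and 35.3 CPM in KO, and 33.3 and 35.6 CPM in WT. Its log2 fold changes were 0.01 in KO against WT (edgeR adjusted p = 0.891) and -0.87 in KO+Smad7 against KO. With GC and length offsets the value in KO against WT was -0.22 and passed. Mrps18b had 18.5 and 16.8 CPM in KO+Smad7, 25.2 and 25.9 CPM in KO, and 40.5 and 45.6 CPM in WT. Mrps18c had 12.4 and 12.3 CPM in KO+Smad7, 17.0 and 16.4 CPM in KO, and 27.8 and 31.0 CPM in WT. For these genes the step between KO and WT, -0.75 and -0.82 on the log2 scale, was the greater one, and that of KO+Smad7 against KO was -0.54 and -0.44. With GC and length offsets the step of KO+Smad7 against KO was -0.10 and -0.09 and passed in neither gene (edgeR adjusted p = 0.236 and 0.421). So the relative that sits in the large subunit had overlapping KO and WT libraries, while the other relatives were lower in KO. Mrps30, the other protein of the large subunit with a small subunit name, had 37.6 and 34.3 CPM in KO+Smad7, 63.0 and 66.4 CPM in KO, and 72.0 and 71.5 CPM in WT. Its log2 fold changes were -0.15 in KO against WT (edgeR adjusted p = 0.00711) and -0.85 in KO+Smad7 against KO. With GC and length offsets the first of these turned to 0.35.

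The genes were also split by whether bacteria have a counterpart. The 48 with a counterpart had medians of -0.42 in KO against WT, -0.79 in KO+Smad7 against KO and -1.15 in KO+Smad7 against WT. The 28 found only in mitochondria, which leave out Mrps36, had medians of -0.39, -0.80 and -1.26. The difference between the classes, those with a counterpart minus the others, was 0.12 in the last comparison, where the large minus small subunit difference was 0.03.

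The genes lie on 17 chromosomes, with none on chromosomes 12, 18, X or Y, and chromosome 11 holds 11 of them (GENCODE, GRCm38). All 11 fell in KO against WT, with a median log2 fold change of -0.62, while the 66 on other chromosomes had a median of -0.35. Of all 1338 genes tested on chromosome 11, 45.5% were lower in KO, and their median was -0.19. For KO+Smad7 against KO the medians were -0.80 on chromosome 11 and -0.80 elsewhere, but -0.41 and -0.65 with GC and length offsets, with 9 of the 11 called. This split was chosen after the values were seen. By exon structure, 24 genes share 5% or more of their exon bases with another annotated gene, most on the other strand, up to 77.8% in Mrps34 and 69.8% in Mrps25. Without knowledge of the strand setting, reads of such neighbours cannot be told apart. The 53 genes with less sharing had medians of -0.36 in KO against WT, -0.79 in KO+Smad7 against KO and -1.20 in KO+Smad7 against WT. The 24 with more sharing had -0.48, -0.81 and -1.26 in the same order. The median GC content of the transcripts was 49.7%, the same as over all genes tested, and the median longest transcript had 1884 bases, against 3013 over all genes.

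Many of these genes start head to head with a neighbour. In 33 of the 77 genes (42.9%) a protein-coding gene starts within 1000 bases on the opposite strand, against 2102 of 13915 protein-coding genes tested (15.1%). Mrpl46 and Mrps11, 1 gene of each subunit, form such a pair and lay close in every comparison, with log2 fold changes of -0.75 and -0.72 in KO against WT and of -1.06 and -1.02 in KO+Smad7 against KO. They share 173 exon bases on opposite strands. Mrps12 faces Sars2, the mitochondrial seryl-tRNA synthetase, which fell by 1.02 in KO against WT and by 0.23 in KO+Smad7 against KO on the log2 scale, where Mrps12 fell by 0.63 and by 1.28. Here the neighbours thus took their larger steps in different comparisons. The 29 partners tested that are not mitochondrial ribosomal protein genes had medians of -0.07 in KO against WT (6 higher and 13 lower), -0.47 in KO+Smad7 against KO (4 and 19) and -0.60 in KO+Smad7 against WT (6 and 19). After library size scaling these were 0.07 (12 higher and 10 lower), -0.22 (9 and 15) and -0.21 (12 and 16), so the balance of calls in KO against WT turned. This shift was not particular to the partners. Over all genes tested the calls in KO against WT moved from 5977 higher and 5770 lower to 7257 and 4496. Some partners went the other way from their member: Pnpla7, a lysophospholipase, and Tmem63b, a membrane channel, rose by 1.35 and 0.65 in KO+Smad7 over KO, where their partners Mrpl41 and Mrpl14 fell by 0.90 and 0.89. Tcp1, a subunit of the cytosolic chaperonin, fell by 1.06 beside Mrpl18, which fell by 1.12, with 10.1% of the exon bases of Mrpl18 shared. The split by head-to-head starts was also chosen after the values were seen.

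**Figure D5:**
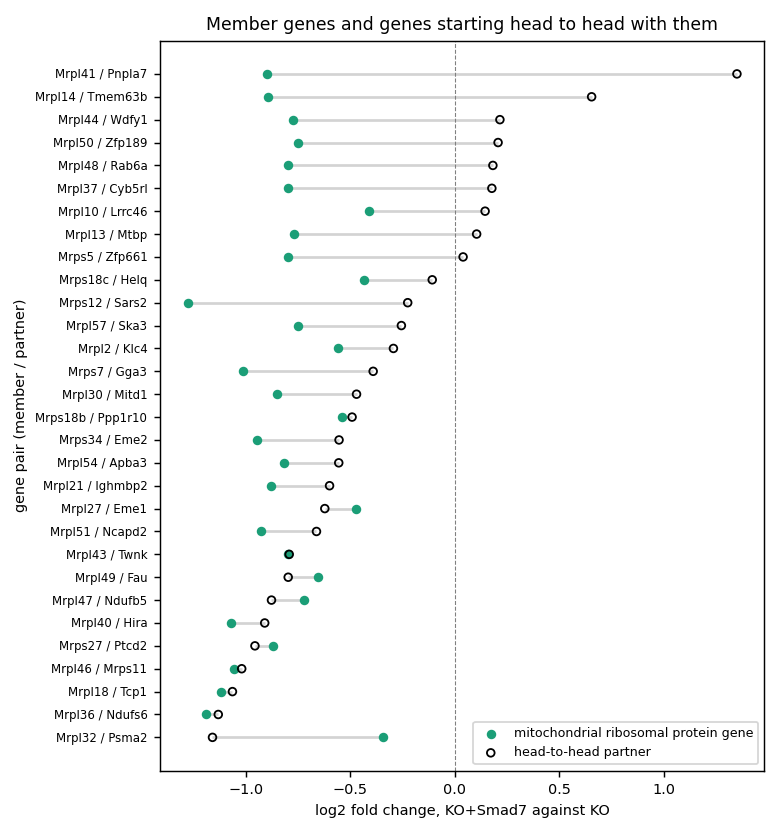
Log2 fold change in KO+Smad7 against KO of mitochondrial ribosomal protein genes (filled) and of the gene that starts within 1000 bases on the opposite strand (open), joined by a line and sorted by the partner. Pairs whose partner was not tested, those of Mrpl9 and Mrps30, are left out, and Mrps11 is drawn only as the partner of Mrpl46. The filled dots all lie below 0, while the partners run from -1.16 for Psma2 to 1.35 for Pnpla7.

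Other nuclear genes of mitochondrial translation were described in the same way. The 5 further ribosomal proteins without an Mrp symbol, Dap3, Gadd45gip1, Ptcd3, Aurkaip1 and Chchd1, fell in each of the 3 comparisons, with medians of -0.33, -0.94 and -1.27. Dap3, the GTP-binding protein of the small subunit, had 89.1 and 90.5 CPM in KO+Smad7, 133 and 137 CPM in KO, and 155 and 163 CPM in WT. Chchd1, a small subunit protein, had 26.7 and 24.4 CPM in KO+Smad7, 48.1 and 56.9 CPM in KO, and 74.8 and 82.4 CPM in WT. Both showed the order of the Mrp genes. Of 26 assembly factors, 18 fell and 6 rose in KO against WT, and 20 fell and 1 rose in KO+Smad7 against KO. Rbfa, which matures the small subunit RNA, had 12.3 and 8.9 CPM in KO+Smad7, 32.0 and 32.6 CPM in KO, and 41.9 and 41.8 CPM in WT. Trmt2b, which methylates mitochondrial RNA, was an exception at 15.3 and 16.2 CPM in KO+Smad7, 16.9 and 17.2 CPM in KO, and 5.7 and 6.5 CPM in WT. Of 15 translation factors tested, 10 fell and 1 rose in KO against WT, or 5 and 2 with library size scaling, and 14 fell and 1 rose in KO+Smad7 against KO. Tufm, the elongation factor that delivers tRNAs and works at the stalk, had 34.6 and 33.6 CPM in KO+Smad7, 69.4 and 67.9 CPM in KO, and 100.2 and 94.7 CPM in WT. Of 20 genes that charge mitochondrial tRNAs, 12 fell and 7 rose in KO against WT, and 16 fell and 1 rose in KO+Smad7 against KO. After library size scaling 9 were lower and 7 higher, and 10 and 2, in these comparisons, and the share higher in KO against WT was near that of all genes.

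Among 15 tested genes that transcribe the mitochondrial genome or regulate its nuclear partners, 11 fell and 1 rose in KO against WT, and 10 fell and 3 rose in KO+Smad7 against KO. With library size scaling 6 fell and 5 rose in KO+Smad7 against KO, with a median of -0.19 in place of -0.44. Nrf1, the factor whose motif core is TGCGCA, had 37.2 and 37.3 CPM in KO+Smad7, 78.2 and 79.0 CPM in KO, and 87.6 and 91.9 CPM in WT. Gabpa, an Ets factor, had 184 and 167 CPM in KO+Smad7, 141 and 129 CPM in KO, and 266 and 255 CPM in WT. Pprc1, a coactivator of these factors, had 119 and 128 CPM in KO+Smad7, 261 and 261 CPM in KO, and 420 and 415 CPM in WT. Nrf1 and Pprc1 thus had the order of the ribosomal genes, while Gabpa was lowest in KO and rose by 0.37 in KO+Smad7 over KO. For Nrf1 the step between KO and WT was small (log2 fold change -0.19) and depended on the TMM factors. Nrf1 had 1535 and 1503 counts in KO and 1485 and 1644 in WT, which overlap, also relative to the library totals alone. Tfam, which packs and transcribes the mitochondrial genome, had 76.9 and 73.9 CPM in KO+Smad7, 126 and 125 CPM in KO, and 153 and 154 CPM in WT.

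The mitochondrial mRNAs, which this ribosome translates, had another pattern, which depended on the correction for GC and length. Of 7 tested, 4 fell and none rose in KO against WT, with a median of -0.10. All 7 rose in KO+Smad7 against KO, with a median of 0.59, and against WT 4 rose and 2 fell. With GC and length offsets the medians were 0.68 in KO against WT and -0.17 in KO+Smad7 against KO, so that both directions turned, and with library size scaling the median in KO against WT was 0.04. mt-Co1, of cytochrome c oxidase, had 10553 and 10224 CPM in KO+Smad7, 6822 and 6966 CPM in KO, and 7352 and 7451 CPM in WT. The other 6 mRNAs had at most 1 count in any library. The ribosomal RNAs mt-Rnr1 and mt-Rnr2 had 0 to 3 counts in any library and were not tested.

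Other large complexes are set beside the mitochondrial ribosome as a description with no test. Of 81 cytosolic ribosomal protein genes tested, 35 fell and 13 rose in KO against WT, with a median of -0.07. Of 82 nuclear genes of the respiratory chain, a list that here includes ATP synthase, 55 fell and 9 rose, with a median of -0.21. With library size scaling 13 of the cytosolic genes fell and 38 rose, with a median of 0.08, and 31 of the respiratory chain genes fell and 16 rose, with a median of -0.07. The 77 genes had a median of -0.41, or -0.26 with library size scaling. For KO+Smad7 against KO the medians were close in the main fit, at -0.85 for the cytosolic ribosome, -0.75 for the respiratory chain and -0.80 for the mitochondrial ribosome. GC and length offsets moved them to -0.50, -0.44 and -0.64 in the same order. In KO+Smad7 against WT the medians were -0.91, -0.94 and -1.23, or -0.61, -0.64 and -1.08 with these offsets. These comparison lists were chosen after the files had been examined.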

How the data were processed

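Poly(A)-selected RNA was made into TruSeq libraries, per the labels' protocols. The authors deposited raw read counts per gene. STAR and featureCounts 1.6.3, with the builds mm10 and GRCm38, are named in the submitters' processing notes; the annotation release and the strand setting were not stated there or in the labels. Columns were matched to labels by name, and 2 columns that matched no sample were not used. The counts were filtered with filterByExpr (17342 genes), scaled with TMM factors and tested with edgeR's quasi-likelihood test (edgeR 4.0.16, R 4.3.3) in 1 fit of 6 libraries and 3 groups, with Benjamini-Hochberg adjustment over all genes tested and a threshold of 0.05. The common biological coefficient of variation was 2.47%. Replicates differed by more than sampling noise (chi-square per degree of freedom 1.64 to 2.00). Positions and exon lengths came from GENCODE and promoters from RefSeq, matched by symbol. The script was tested on simulated data.

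Members and lists were chosen with earlier results of these data known. Genes were named by a rule: in each comparison the 6 greatest rises and falls whose libraries did not overlap, the 3 highest and lowest per kilobase, genes passing against the majority, genes by structural role, and of other lists up to 3 by adjusted p. Other genes were named after their values were seen. Alternatives were RLE and library size scaling, DESeq2 1.42.0, other filters, GC and length offsets, a minimum fold of 1.2, only the compared libraries, a replicate block, another subunit assignment and each library left out.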

Additional observations from a re-analysis of the deposited data

How the results depend on the processing

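The number of genes called lower in KO+Smad7 stayed between 71 and 77 against KO and between 76 and 77 against WT over all alternatives, and none was called higher. In KO against WT, genes called higher numbered 5 with library size scaling, 7 with GC and length offsets and 1 against a minimum fold of 1.2; genes called lower numbered 45 against that fold, where 23.1% of all genes were called. With each library left out in turn they numbered 66 to 68 lower and 2 to 3 higher. Large minus small subunit medians in KO against WT moved to -0.081 with the structural assignment, to -0.057 with GC and length offsets, and ran from -0.118 to -0.078 with a library left out, the last without WT replicate 1. In KO+Smad7 against KO they ran from -0.023 to 0.012 with a library left out, and in KO+Smad7 against WT from -0.011 to 0.050, or 0.063 with the structural assignment. Directions turned in KO against WT with GC and length offsets for Mrpl15 (0.29), Mrpl50 (0.084), Mrpl57 (0.24), Mrps14 (0.22), Mrps18a (-0.22), Mrps30 (0.35) and Mrps9 (0.58), and with library size scaling for Mrpl3 (0.022), Mrpl41 (0.054) and Mrpl57 (0.13). Values that had not passed also changed sign there: Mrps18a with RLE scaling (-0.045), DESeq2 (-0.044) and a library left out (from -0.035 without WT replicate 1 to 0.059 without WT replicate 2), Mrpl14 with a library left out (from -0.049 without WT replicate 1 to 0.32 without WT replicate 2, where it passed), and Mrpl57 with only the 4 libraries compared (0.0030), without KO replicate 2 (0.00034) and without WT replicate 2 (0.012). They turned in KO+Smad7 against KO for Mrpl1 (0.057) with library size scaling and for Mrpl27 (0.0097) and Mrps6 (0.094) with GC and length offsets. The cause was not tested. Library size scaling moved the median of all genes to 0.17, 0.29 and 0.48 in KO against WT, KO+Smad7 against KO and KO+Smad7 against WT, and the calls over all genes to 7257 higher and 4496 lower, 8609 and 4492, and 9803 and 4556. In KO+Smad7 against KO the set's median minus that of all genes was -0.84, but -0.66 with GC and length offsets and -0.71 with a minimum of 1 CPM in 4 libraries. With a replicate block the calls were 2 higher and 68 lower in KO against WT, and 77 lower in each other comparison. Differences between replicates were almost uncorrelated between groups (r from 0.01 to 0.03). With 2 libraries in each group, these values cannot settle whether libraries of the same replicate number were paired. Over single genes and alternatives, 3379 values kept direction and side of the threshold, 59 no longer passed, 7 newly passed and 20 turned. Groups of 2 limit all results, and depth limits Mrpl23, Mrps33 and Mrps36 most.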
